A study of Mus musculus with 60 samples.

Results

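The genes described here are 10 immediate early genes of mouse: the AP-1 genes Fos, Fosb, Fosl1, Fosl2, Jun, Junb and Jund, the related bZIP gene Atf3, and the transcription factor genes Egr1 and Myc. They were chosen by name, and all 10 were found among the 19355 genes of a table of cultured cells and among the 17473 genes of a table of whole livers, while 2 of them were found among the 480 complete genes of a shorter table of day 7 cultures. All values were FPKM (fragments per kilobase of transcript, scaled to the library's mapped fragments) from polyT-selected RNA, with 3 samples in each group. The cell table held 33 samples labelled wild-type C57BL/6. They were hepatocytes, their cultures after 3 and 14 days in a medium with EGF, HGF, dexamethasone and IL6 (IL6-iHPCs-D3 and IL6-iHPCs-D14, passage 0, hepatic progenitor-like cells), and 4 passaged lines of IL6-iHPCs (from mouse-1 at P10 and P35, from mouse-2 at P10, and clone-1 at P20, grown from 1 cell, where the study describes its clones as grown from hepatocytes that a Cre under the albumin promoter had marked with tdTomato). The same 4 lines were also measured after a maturation medium that holds dexamethasone and oncostatin M, as IL6-iMHs (induced mature hepatocytes). The study lists more dexamethasone for that medium than for the first, and no EGF, HGF or IL6. The liver table held 18 whole livers, also labelled wild-type C57BL/6, normal or taken 6 h, 24 h, 3 days, 7 days or 14 days after 2/3 partial hepatectomy (PHX), with no sham-operated group among the livers used here. The short table held primary hepatocytes and their day 7 cultures in the medium with IL6 (IL6-iHPCs-D7) or without it (HCM-Hepa-D7).

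Immediate early genes are transcribed within minutes of a stimulus, from factors already present in the cell, and most of their mRNAs are short-lived. Growth factor and cytokine receptors signal through the MAP kinases to factors such as SRF and its ternary complex partners, which switch on Fos, Egr1 and their kin. Fos proteins pair with Jun proteins to form AP-1, which binds DNA at target genes of growth, migration and stress. Myc pairs with Max and drives genes of ribosome production and metabolism. In the liver, Fos, Jun and Myc are textbook genes of the priming phase after hepatectomy, when resting hepatocytes leave quiescence.

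The libraries held 49.3 to 88.9 M reads on listed genes in the cell table and 52.1 to 79.3 M in the liver table, as recovered from the FPKM steps. The 8 hepatocyte markers summed to 76404 to 82495 FPKM in hepatocytes, to 601 to 716 in IL6-iHPCs-D3 and to 60094 to 81433 in IL6-iMHs. The macrophage, endothelial and red blood cell markers were far below these but not at 0 in hepatocytes, with sums of 11.6 to 13.7, 16.2 to 18.6 and 107 to 124 FPKM. Most of the endothelial sum was Clec4g (11.6 to 14.2 FPKM), and most of the red blood cell sum was Alas2 (90.4 to 98.1 FPKM). In livers, 2 samples stood apart from their own group: PHX-D14 replicate 3, with 103 FPKM of Fos where the others held 5.52 and 5.9, and PHX-D3 replicate 2, with the highest Fos, Myc and Atf3 levels and the highest summed macrophage and neutrophil markers of its group. The members' results and the list counts that rest on either are given with and without it. The study describes the cell table's samples as technical repeats, so p-values there cover technical spread only, and no source used here says whether the 3 livers of a group were separate animals. In whole livers, fewer cells of a type and less RNA per cell cannot be told apart.

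The DNA just upstream of a gene's start is where its signal-responsive factors bind, so the 250 bases before the start are shown for 3 members with contrasting patterns below: Fos, which had the highest level of its family in livers, Jun, which followed it closely in livers and less so in cells, and Atf3, which was highest in both late groups of livers and in early cultures. The sequences are from RefSeq on GRCm38.p6, and the windows of 7 of the 10 members were used (Fos, Fosb, Fosl2, Jun, Junb, Jund and Atf3). Fosl1 and Myc had no entry, and Egr1 was left out, so the motif results below do not cover these genes. Capitals mark TGACG, the core shared by CRE and ATF sites, and TATAAA, the TATA box, both searched after the promoters had been read.
Fos, chr12:85473640-85473889, plus strand: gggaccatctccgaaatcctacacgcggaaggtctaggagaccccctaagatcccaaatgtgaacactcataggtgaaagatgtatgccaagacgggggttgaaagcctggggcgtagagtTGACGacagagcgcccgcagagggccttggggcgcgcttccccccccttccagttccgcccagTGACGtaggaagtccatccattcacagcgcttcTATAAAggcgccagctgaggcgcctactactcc
Jun, chr4:95052223-95052472, minus strand: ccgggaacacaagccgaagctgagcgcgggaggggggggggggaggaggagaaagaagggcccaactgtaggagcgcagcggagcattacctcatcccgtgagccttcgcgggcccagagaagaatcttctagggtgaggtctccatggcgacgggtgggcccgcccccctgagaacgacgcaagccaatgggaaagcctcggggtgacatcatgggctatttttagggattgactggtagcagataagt
Atf3, chr1:191183334-191183583, minus strand: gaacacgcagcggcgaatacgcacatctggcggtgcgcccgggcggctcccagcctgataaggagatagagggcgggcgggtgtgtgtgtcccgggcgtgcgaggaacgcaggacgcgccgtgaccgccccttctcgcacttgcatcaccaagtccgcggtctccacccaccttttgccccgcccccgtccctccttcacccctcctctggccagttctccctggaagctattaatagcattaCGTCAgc
TGACG, on either strand, was in 17.8% of all 32851 promoter windows of this length, and stood in those of Fos (2 sites, 129 to 125 and 66 to 62 bases before the start), Fosb, Junb and Atf3 (7 to 3 bases before the start, as CGTCA). The TATA box letters were in 12.4% of windows and in that of Fos, 33 to 28 bases before the start. On both strands, none of the 7 windows held the AP-1 site known as the TRE with any middle base (6.75% of all windows), the full CRE TGACGTCA (1.55%), the SRF site known as the CArG box (1.47%), the E-box CACGTG (6.02%), the STAT site TTCNNNGAA (7.02%) or the ETS site CCGGAAGT (2.88%), which says only that these letters are not in these windows. The longer core contains the shorter one, since TGACGTCA begins with TGACG.

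In livers, the members' sum was highest 7 days after PHX and in PHX-D14 replicate 3, with a smaller peak at 6 h. Their summed FPKM was 86.6, 113 and 88 in the 3 normal livers and 348, 266 and 244 at 6 h, then 114, 186 and 150 at 24 h and 140, 338 and 118 at day 3. At day 7 it was 917, 935 and 897, and at day 14 it was 317, 497 and 1088. The day 7 livers were close to each other, and those of days 3 and 14 were spread widely. The lowest sum at day 14 (317) lay below the highest at 6 h (348). The group with the highest mean was PHX-D7 for 5 members, PHX-D14 for 4 and PHX-6h for Fosl1. For Atf3 and Egr1 the lead of PHX-D14 rests on replicate 3 (121 and 251 FPKM). The other PHX-D14 livers held 47.6 and 55.6 FPKM of Atf3 and 67.5 and 160 of Egr1. The PHX-D7 means were 66.2 and 139 FPKM.

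**Figure D1:**
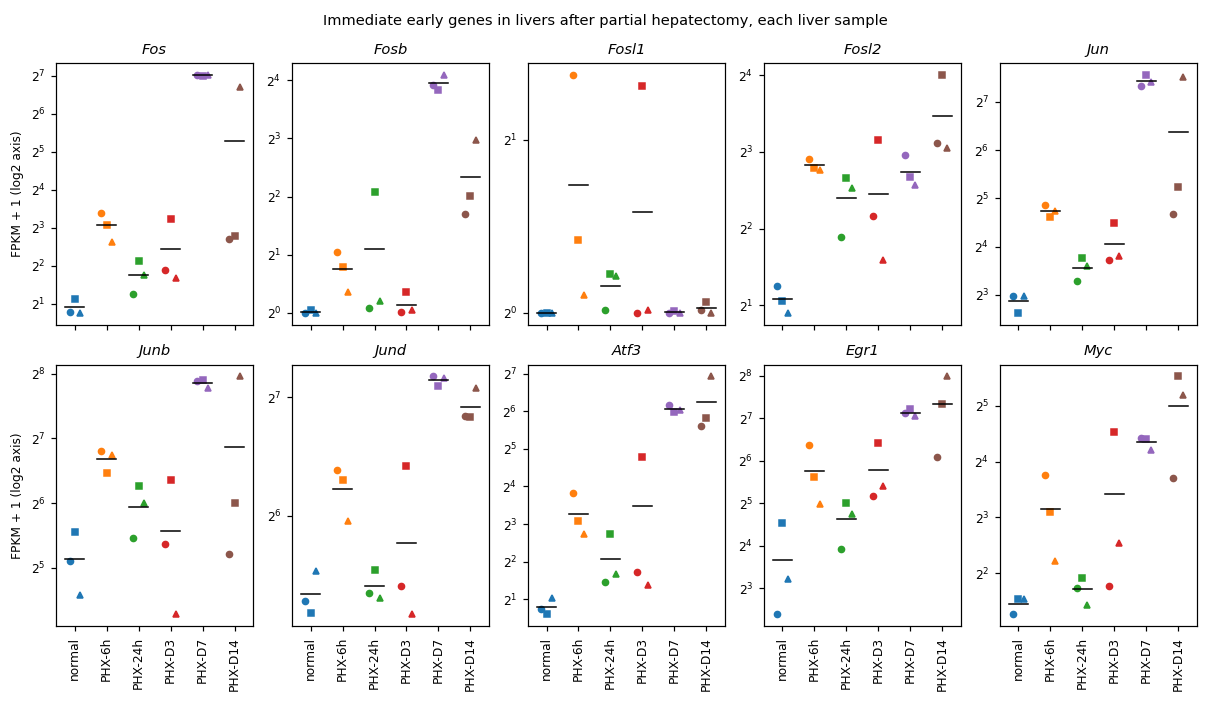
FPKM of each of the 10 members in each liver sample (log2 axis of FPKM + 1), with the 6 groups along the horizontal axis, points for samples, the marker's shape for the replicate number and a bar for the group's mean. The 3 PHX-D7 points of Fos lie together near 128 FPKM, whereas those of PHX-D14 run from 5.52 to 103.

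Fos, the Fos-family partner of the classical AP-1 dimer, stood at 0.717, 1.19 and 0.693 FPKM in normal livers and at 9.53, 7.4 and 5.16 in PHX-6h. It was at 1.4, 3.35 and 2.35 FPKM in PHX-24h and at 2.69, 8.4 and 2.18 in PHX-D3. The PHX-D7 livers held 128, 127 and 129 FPKM and the PHX-D14 livers 5.52, 5.9 and 103. Every PHX-D7 liver was thus above every other liver, and every operated liver was above every normal one. Fosb, its close relative, was at or near 0 in normal livers (0, 0.0289 and 0 FPKM), at 14.1, 13.3 and 16.1 FPKM in PHX-D7 and at 2.26, 3.05 and 6.85 in PHX-D14. Its values elsewhere were 0.0072 to 3.24 FPKM, so that PHX-D7 lay apart from all other livers here too. Fosl1, which encodes Fra-1, reached 1 FPKM in 2 of 18 livers (1.59 in PHX-6h replicate 1 and 1.48 in PHX-D3 replicate 2), was listed at 0 in 7 and was not tested in livers. Fosl2, which encodes Fra-2, had its highest mean in PHX-D14 and not in PHX-D7. It was at 1.38, 1.09 and 0.869 FPKM in normal livers and at 6.52, 5.93 and 5.81 in PHX-6h, and all later livers lay between 2.02 and 15 FPKM, the lowest of them still above every normal liver.

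Jun, whose protein pairs with Fos or with itself, was at 6.87, 5.19 and 6.83 FPKM in normal livers, at 28, 23.4 and 25.8 in PHX-6h and at 8.72, 12.6 and 11.1 in PHX-24h. It was at 12.2, 21.5 and 13 FPKM in PHX-D3, at 159, 187 and 170 in PHX-D7 and at 24.6, 36.9 and 183 in PHX-D14. As with Fos, the third PHX-D14 liver had a level like that of PHX-D7 and the other two did not. Junb, an AP-1 member often opposed to Jun in growth control, was already at 33.4, 45.7 and 22.9 FPKM in normal livers and reached 111, 87.7 and 106 in PHX-6h and 235, 238 and 220 in PHX-D7. In PHX-D14 it was at 36.2, 62.8 and 248 FPKM, and the first of these lay within the normal range. Jund, the Jun gene known for high expression in resting cells, had the narrowest range as a ratio of highest to lowest, from 34.9 to 144 FPKM, with normal livers at 38, 35.2 and 45.4 and PHX-D7 at 144, 135 and 143.

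Atf3, a stress-responsive repressor that can pair with Jun proteins, was at 0.688, 0.517 and 1.05 FPKM in normal livers, at 13.1, 7.41 and 5.61 in PHX-6h and at 1.73, 5.71 and 2.19 in PHX-24h. PHX-D3 held 2.32, 26.5 and 1.62 FPKM, PHX-D7 70.8, 62.6 and 65, and PHX-D14 47.6, 55.6 and 121. Its day 7 and day 14 livers were all above the other livers and overlapped each other. Egr1, a zinc finger factor of growth factor signalling, was at 4.24, 22.4 and 8.37 FPKM in normal livers, the widest spread as a ratio of the members there apart from those near 0, and at 81.5, 48 and 30.5 in PHX-6h. It then stood at 14.2, 31.2 and 25.9 FPKM in PHX-24h, at 35.3, 84.7 and 41.4 in PHX-D3, at 138, 146 and 132 in PHX-D7 and at 67.5, 160 and 251 in PHX-D14. Myc was at 1.41, 1.9 and 1.89 FPKM in normal livers, at 12.5, 7.59 and 3.66 in PHX-6h and at 2.34, 2.78 and 1.7 in PHX-24h, where it overlapped the normal range. It was at 2.42, 22 and 4.82 FPKM in PHX-D3, at 20.4, 20.3 and 17.4 in PHX-D7 and at 12, 44.9 and 35.4 in PHX-D14.

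The groups did not separate at every step of these orders. For Fos, PHX-D7 (128 ± 1.06 FPKM, SD, n = 3) lay apart from PHX-D14 (38 ± 56), and PHX-D14, PHX-6h (7.36 ± 2.19), PHX-D3 (4.42 ± 3.45) and PHX-24h (2.37 ± 0.974) each overlapped the next. For Atf3, PHX-D14 (74.6 ± 40) and PHX-D7 (66.2 ± 4.19) overlapped, and both lay apart from PHX-D3 (10.1 ± 14.2). For Egr1, PHX-D14 (160 ± 91.9) and PHX-D7 (139 ± 7.19) overlapped, and so did each neighbouring pair from PHX-D3 (53.8 ± 26.9) down to normal livers (11.7 ± 9.5). For Myc, the 4 highest groups overlapped in turn, from PHX-D14 (30.8 ± 17) to PHX-6h (7.92 ± 4.43).

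The comparison with normal livers asked which members differed at each time after PHX. It was made with limma on log2(FPKM + 1), a scale that understates the change of genes under about 1 FPKM, with all 6 liver groups in the fit. Called means a Benjamini-Hochberg adjusted p under 0.05 over all 11114 tested genes and at least a 2-fold difference, and 9 of the 10 members were tested. At 6 h, 7 of the 9 members rose, where 4.78% of all tested genes were called higher, and none was called lower (11.5% of all genes). Atf3 rose by 2.41 on the log2 scale (SE 0.652, adjusted p = 0.0062, limma), Egr1 by 2.27 (SE 0.543, adjusted p = 0.0028) and Fos by 2.14 (SE 0.743, adjusted p = 0.025). Jun rose 3.68-fold, Fosl2 3.37-fold, Junb 3.02-fold and Myc 2.99-fold. Jund, at 1.84-fold, had an adjusted p of 0.0054 (limma) but did not reach 2-fold, and Fosb had a log2 difference of 0.72 (adjusted p = 0.15). Fosb was at 1.06, 0.734 and 0.287 FPKM in PHX-6h, above every normal liver, so the pseudocount weighs on its value. Its log2 difference ran from 0.72 to 6.82 over 4 scalings, and it was called in 1 of them. The calls of Fos, Junb and Myc were lost without normal liver replicate 1, without normal liver replicate 3 or without PHX-6h replicate 1, each of which left 4 members called: Fosl2, Jun, Atf3 and Egr1. Those 4 were called whichever liver was left out, while Myc was also lost without normal liver replicate 2 or PHX-6h replicate 2, Fos without PHX-6h replicate 2 and Junb without PHX-6h replicate 3.

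At 24 h, Fosl2 alone of the 9 was called (2.45-fold, adjusted p = 0.0072, limma), beside 3.74% of all genes called higher and 4.16% lower. The log2 differences of Egr1 (1.17, adjusted p = 0.11), Atf3 (1.16, adjusted p = 0.18), Fos (0.82, adjusted p = 0.42) and Jun (0.69, adjusted p = 0.28) missed the threshold, and Egr1 was called without normal liver replicate 2 (1.75, adjusted p = 0.025). At day 3, Egr1 (4.86-fold, adjusted p = 0.0069), Atf3 (3.57-fold, adjusted p = 0.046) and Fosl2 (2.35-fold, adjusted p = 0.011) rose, beside 3.33% of all genes called higher and 2.49% lower. Without PHX-D3 replicate 2 only Egr1 was still called (log2 difference 1.91, adjusted p = 0.024), and Atf3 stood at 0.77 (adjusted p = 0.17), Fosl2 at 0.81 (adjusted p = 0.04, under 2-fold) and Myc at 0.71. The call of Atf3 was also lost without any 1 of the normal livers (adjusted p = 0.091, 0.12 and 0.083), and Myc was called without PHX-D3 replicate 1 (log2 difference 2.09, adjusted p = 0.014).

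At day 7 all 9 tested members rose, beside 7.81% of all genes called higher and 1.03% lower. On the log2(FPKM + 1) scale Fos had the largest difference of the 9 (log2 6.12, SE 0.743, 69.6-fold, adjusted p = 1.5e-05, limma), followed by Atf3 (5.27, 38.6-fold), Jun (4.57, 23.8-fold), Fosb (3.93, 15.3-fold) and Egr1 (3.74, 13.4-fold). The order rests on the pseudocount, since Fosb, near 0 in normal livers, was at 7.06 beside 7.09 for Fos with a pseudocount of 0.1 and at 11.34 beside 7.25 on recovered reads. The smallest were those of Jund (3.51-fold) and Fosl2 (3.16-fold). At day 14, 8 of the 9 rose, beside 0.981% of all genes called higher and 2% lower: Atf3 39.9-fold (adjusted p = 0.00013), Egr1 13.4-fold, Myc 10.2-fold, Fos 9.02-fold (adjusted p = 0.0085), Jun 7.76-fold, Fosl2 5-fold, Fosb 4.65-fold and Jund 3-fold. Junb had a log2 difference of 1.31 (adjusted p = 0.12). Without PHX-D14 replicate 3 the same 8 were called, Fos with a log2 difference of 1.86 in place of 3.17 and Jun with 2.10 in place of 2.96, and Junb stood at 0.53 (adjusted p = 0.53). Without PHX-D14 replicate 1, Junb was called as well (1.90, adjusted p = 0.031). The calls of Fos and Myc at 6 h were made in 3 of 4 scalings and those of the other 5 in all 4. Atf3 at day 3 was called in 2 of 4 (not with quantile normalization or recovered reads, adjusted p = 0.064 and 0.11) and Fos at day 14 in 3 of 4 (not with recovered reads, adjusted p = 0.054), and the other calls at days 3, 7 and 14 were made in all 4. Directions against normal livers were the same for all 9 members at the 5 times under FPKM as given, quantile normalization, median-of-ratios scaling and recovered reads. The share of all called genes that were higher moved with quantile normalization from 29.3% to 52.9% at 6 h, from 88.4% to 72.4% at day 7 and from 32.9% to 47.6% at day 14, and with median-of-ratios scaling to 49.1%, 84.3% and 41.5%.

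**Figure D2:**
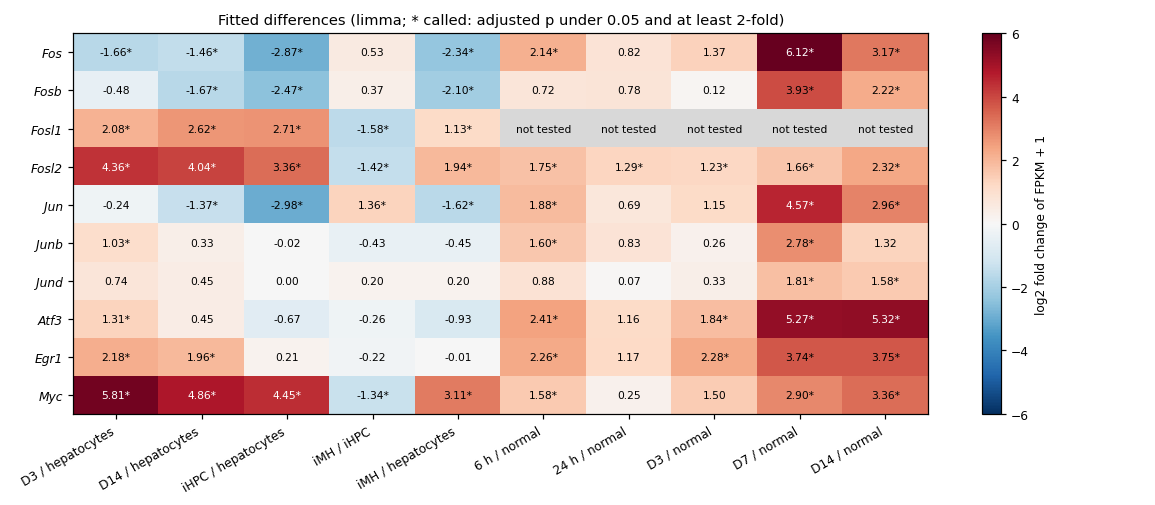
Log2 fold change of each member (lines of the grid) in each main comparison (columns), by colour and number, with an asterisk for a call (adjusted p under 0.05 and at least 2-fold, limma). All 9 tested members are marked in PHX-D7 against normal liver and 1, Fosl2, in PHX-24h, and Fosl1 was not tested in livers.

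Between successive times, no member was called from 6 h to 24 h (1.53% of all genes were called lower and 5.19% higher) or from 24 h to day 3 (2.07% higher and 1.65% lower). At an unadjusted p under 0.05, limma counted 3 of 9 members from 6 h to 24 h, beside 46.1% of all genes, and 1 of 9 from 24 h to day 3, beside 37%, and limma voom on recovered reads called 0 in both. The 3 were Jun (log2 difference -1.19, adjusted p = 0.063), Jund (-0.81, adjusted p = 0.013, under 2-fold) and Myc (-1.33, adjusted p = 0.079), and the 1 was Myc (1.25, adjusted p = 0.12). With PHX-D3 replicate 2 and PHX-D14 replicate 3 left out of the fit, 4 members, beside 2.12% of all genes, were called lower at 24 h than at 6 h: Fos (-1.32), Jun (-1.19), Atf3 (-1.25) and Myc (-1.33).

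Other genes of the pathway were read from lists chosen by function. Of 21 other immediate early genes tested in livers, 12 rose at 6 h (median log2 difference 1.14, where that of all genes was -0.28), 4 at 24 h, 3 at day 3, 16 at day 7 (median 2.16 against 0.13) and 11 at day 14 (median 1.36 against -0.09), and none was called lower at any of the 5 times. Btg2, an antiproliferative early gene, rose 24.8-fold at 6 h, 30.9-fold at day 7 and 47.2-fold at day 14. Nr4a1, an orphan nuclear receptor, rose 36.9-fold at day 7 and 37.6-fold at day 14, and Gadd45g, a growth arrest gene, 9.6-fold at 6 h. Of 13 MAP kinase feedback genes, which encode phosphatases and other brakes on the kinases, 5 rose at 6 h, 6 at day 7 and 5 at day 14, while 2 rose and 1 fell at 24 h and none was called at day 3. Among them Dusp5 rose 6.72-fold at 6 h, Dusp1 8.69-fold at day 7 and Dusp6 6.11-fold at day 14, while Dusp1 fell by 1.14 on the log2 scale at 24 h. Of 16 kinases and ternary complex factors, 2 fell at 6 h (Mapk3, which encodes ERK1, by 1.41 and Elk3 by 1.12), 1 rose at day 3 (Elk4), and none was called at the other times.

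The lists of targets differed in count. Of 12 AP-1 targets, 4 rose at 6 h, 4 at 24 h, 2 at day 3, 6 at day 7 and 1 at day 14. Hmox1, heme oxygenase, rose 5.32-fold at 6 h. At day 7 Vim, vimentin, rose 7.15-fold and Cd44, a hyaluronan receptor, 5.33-fold. Of 20 Myc targets, 2 rose and 1 fell at 6 h, 3 rose at 24 h and none was called at days 3, 7 and 14, with medians of -0.11 at day 7 and -0.07 at day 14 beside all-gene medians of 0.13 and -0.09. Nop58 and Srm, of ribosome and polyamine production, rose 3.6-fold and 2.38-fold at 6 h, and Umps, of pyrimidine synthesis, fell by 1.20 on the log2 scale. Myc itself was 7.46-fold and 10.2-fold above normal livers at days 7 and 14. In the Max network of 13 genes, Mlxipl, which encodes the glucose sensor ChREBP, fell at all 5 times, by 2.59, 1.52, 1.83, 2.00 and 1.73 on the log2 scale in order of time, but without PHX-D3 replicate 2 its day 3 difference was -0.84 and under 2-fold, and without PHX-D14 replicate 3 its day 14 difference was -1.81 with an adjusted p of 0.082 (limma). No other gene of that network fell at 24 h, day 3, day 7 or day 14, and 1 rose at day 3 and 2 at day 7. Of 16 AP-1 partners and relatives, 2 rose and 1 fell at 6 h, 1 rose at 24 h, none was called at day 3, 7 rose at day 7 (Jdp2 and Batf3 among them) and 2 at day 14. Without PHX-D3 replicate 2, the calls at day 3 were 1 of the 21 other immediate early genes (Btg2, log2 1.33; median of the list 0.13), 2 AP-1 targets, 1 gene of the Max network, higher, and none of the feedback genes, kinases, partners or Myc targets. Without PHX-D14 replicate 3, the calls at day 14 were 10 of 20 other immediate early genes (median 1.35), 4 feedback genes, 1 AP-1 partner and none in the other 4 lists, Btg2 and Nr4a1 among the 10 (log2 5.35 and 5.02).

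Markers of blood and other non-parenchymal cells moved with some of these values, and their part in the members' levels was not tested. The 8 Kupffer cell and macrophage markers summed to 125, 184 and 212 FPKM in normal livers in ascending order, to 43.8 to 92.3 in PHX-6h, to 768 to 1111 in PHX-D7 and to 82.8 to 107 in PHX-D14. All 8 rose at day 7 (Marco 25.9-fold), 6 of 8 fell at 6 h and 2 of 8 fell at day 14. Neutrophil markers summed to 2.06 to 7.56 FPKM in normal livers, 43.4 to 44.9 in PHX-6h, 63.3 to 127 in PHX-D7 and 22.9 to 26.5 in PHX-D14, with 4 of 4 tested rising at day 7 (S100a9 14.7-fold). Also at day 7, 4 of 5 red blood cell, 3 of 6 endothelial and 1 of 6 stellate cell markers rose, and 0 of 5 bile duct and 0 of 8 hepatocyte markers were called. The macrophage sums lay above the normal ones in PHX-D7 and below them in PHX-D14. The neutrophil sums lay above the normal ones in both.

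**Figure D3:**
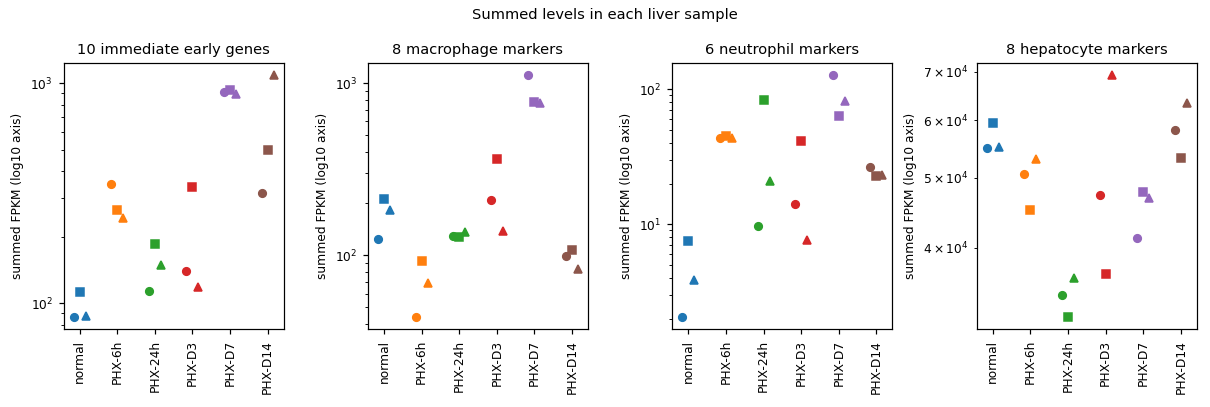
Summed FPKM in each liver sample (log10 axes) of the 10 members, 8 macrophage markers, 6 neutrophil markers and 8 hepatocyte markers, with the groups along the horizontal axes and the marker's shape for the replicate number. The members' sums are highest in PHX-D7 and in PHX-D14 replicate 3 (1088 FPKM), which has the lowest macrophage sum of its group (82.8 FPKM).

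In cells, the members divided into those highest in hepatocytes and those highest in culture. Fos, Fosb and Jun had their highest mean in freshly isolated hepatocytes, Myc and Atf3 in IL6-iHPCs-D3, Fosl2 in the mouse-1 P10 IL6-iHPCs, and Fosl1, Junb, Jund and Egr1 in the clone-1 P20 IL6-iHPCs. Hepatocytes overlapped the next group for Fos (mouse-1 P35 IL6-iMHs) and for Jun (IL6-iHPCs-D3). Fos and Fosb shared their highest group, as did Junb and Jund, while Fosl1 and Fosl2 differed from Fos, and Jun from Junb. Isolated hepatocytes and normal livers were measured in tables normalized separately, so their levels are set side by side without a test: the means were 60.4 and 0.867 FPKM for Fos, 5.45 and 0.0096 for Fosb, 113 and 6.29 for Jun and 9.37 and 0.751 for Atf3, but 1.81 and 1.73 for Myc and 0.909 and 1.11 for Fosl2. The study isolated hepatocytes by collagenase perfusion, and the part of isolation in these levels, the baseline of the comparisons with hepatocytes below, was not tested.

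**Figure D4:**
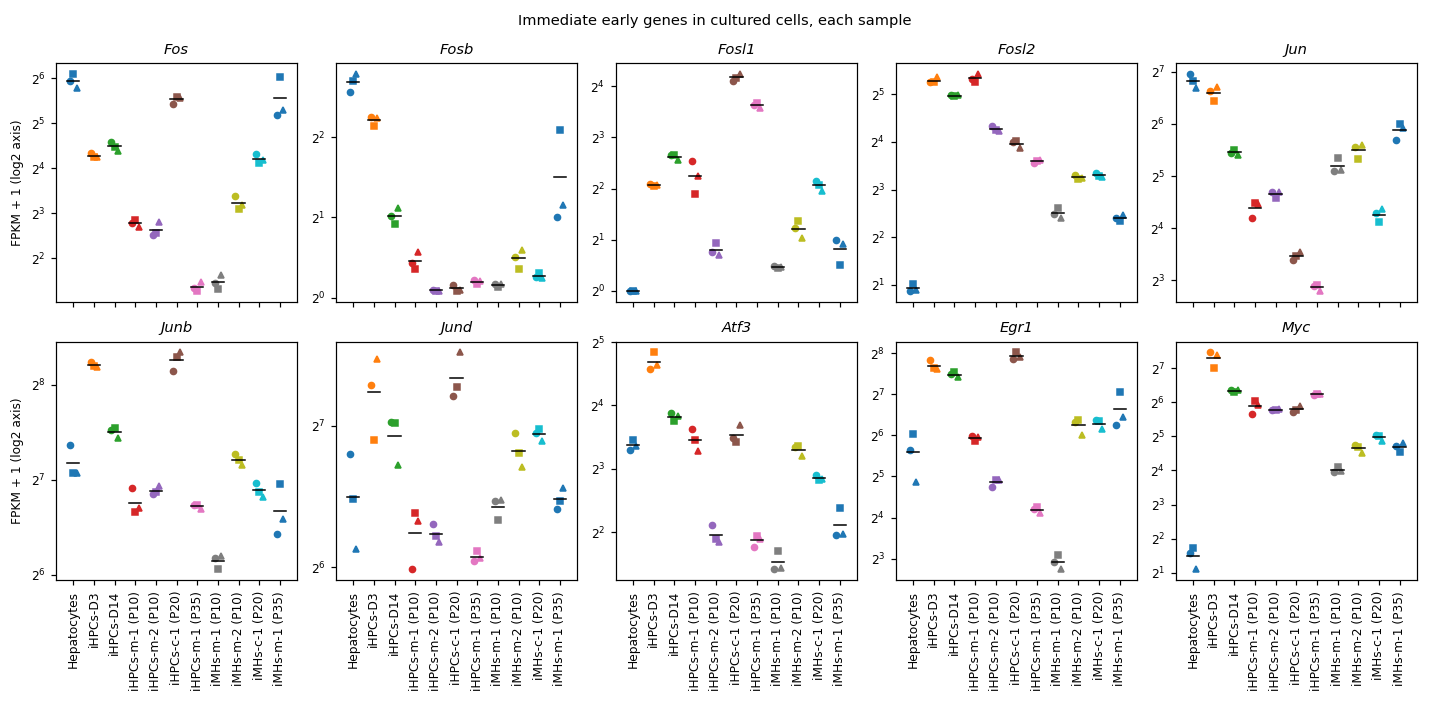
FPKM of each of the 10 members in each cell sample (log2 axis of FPKM + 1), with the 11 groups along the horizontal axis, points for samples, the marker's shape for the replicate number and a bar for the group's mean. Myc and Fosl2 have their lowest values in hepatocytes, where Fos, Fosb and Jun have their highest means.

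Myc was at 2, 2.29 and 1.15 FPKM in hepatocytes, at 175, 126 and 166 in IL6-iHPCs-D3 and at 81.2, 77 and 80.1 in IL6-iHPCs-D14. The passaged IL6-iHPCs held 49 to 75 FPKM and the IL6-iMHs 14.4 to 32.1, so that hepatocytes, IL6-iMHs, passaged IL6-iHPCs and the early cultures formed an ascending series without overlap. Fosl2 was at 0.836, 1.04 and 0.853 FPKM in hepatocytes, at 37.3, 37 and 39.9 in IL6-iHPCs-D3 and at 30.6, 30 and 30.6 in IL6-iHPCs-D14. In the passaged IL6-iHPCs it ranged from 10.8 to 42 FPKM and in the IL6-iMHs from 4.05 to 9.2, below every IL6-iHPC sample and above every hepatocyte sample. Fosl1 was listed at 0 in the 3 hepatocyte samples, and against a limit of 3 reads per library it was at least 121-fold higher in IL6-iHPCs-D3 and at least 194-fold higher in IL6-iHPCs-D14. It was at 3.27, 3.17 and 3.21 FPKM in IL6-iHPCs-D3, at 5.29, 5.3 and 4.93 in IL6-iHPCs-D14, at 16.2, 17 and 17.9 in the clone-1 P20 IL6-iHPCs and at 11.5, 11.8 and 11 in the mouse-1 P35 IL6-iHPCs. The mouse-2 P10 IL6-iHPCs, at 0.696, 0.912 and 0.634 FPKM, were the lowest of the IL6-iHPCs, and their IL6-iMHs were at 1.34, 1.56 and 1.04.

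Fos stood at 60, 67.4 and 53.9 FPKM in hepatocytes, at 19.3, 17.9 and 17.9 in IL6-iHPCs-D3 and at 23, 21.2 and 19.9 in IL6-iHPCs-D14. The passaged IL6-iHPCs differed widely among themselves, from 1.51, 1.41 and 1.78 FPKM in mouse-1 P35 to 42.3, 46.7 and 46.5 in clone-1 P20. The IL6-iMHs of mouse-1 were at 1.72, 1.49 and 2.07 FPKM at P10 and at 35.3, 64 and 38.3 at P35. Among the passaged IL6-iHPCs, the 2 lines at P10 overlapped, and the other 2 lay apart from them and from each other. Jun was at 123, 113 and 103 FPKM in hepatocytes, at 98.1, 85.2 and 103 in IL6-iHPCs-D3, at 42.7, 44.1 and 41.6 in IL6-iHPCs-D14, at 5.97 to 25 in the passaged IL6-iHPCs and at 16.3 to 63.1 in the IL6-iMHs. Fosb was at 4.93, 5.51 and 5.92 FPKM in hepatocytes and 3.78, 3.41 and 3.73 in IL6-iHPCs-D3, and was under 0.5 FPKM in every passaged IL6-iHPC sample.

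Egr1 was at 48.9, 64.7 and 28.2 FPKM in hepatocytes, at 227, 200 and 194 in IL6-iHPCs-D3 and at 179, 186 and 169 in IL6-iHPCs-D14. Among the passaged lines it ran from 17.5, 18.2 and 16.3 FPKM in mouse-1 P35 IL6-iHPCs to 230, 259 and 240 in clone-1 P20 IL6-iHPCs, and the mouse-1 P10 IL6-iMHs held the lowest level of all groups, 6.59, 7.5 and 5.68. Junb was high throughout, with 164, 133 and 134 FPKM in hepatocytes, 301, 292 and 290 in IL6-iHPCs-D3 and 282, 313 and 323 in clone-1 P20 IL6-iHPCs, and its lowest group was again the mouse-1 P10 IL6-iMHs (71.3, 65.7 and 72.4). Jund ran from 62.4 to 182 FPKM, and 9 of the 10 neighbouring pairs of groups in its order overlapped. Atf3 was at 8.83, 10 and 9.27 FPKM in hepatocytes and at 22.9, 27.6 and 23.9 in IL6-iHPCs-D3, and its passaged groups, from 1.66 to 11.9 FPKM, lay below IL6-iHPCs-D14 (13.7, 12.5 and 13.3).

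The change from hepatocytes to IL6-iHPCs was tested with limma over 12328 genes, all 11 cell groups in the fit. FPKM is relative to the library's total, so a group in which some genes hold more of that total has lower values for all others. The median of all genes was 1.14 higher on the log2 scale in IL6-iHPCs-D3 than in hepatocytes, 1.00 higher in IL6-iHPCs-D14, 0.94 higher in the passaged IL6-iHPCs and 0.46 higher in IL6-iMHs. Of all calls in these 4 comparisons, 76.1 to 81.6% were higher than in hepatocytes, but 52.8 to 54.5% with quantile normalization and 53.5 to 60.4% with median-of-ratios scaling. Calls that did not hold under both and under recovered reads are named below.

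At day 3, 6 of 10 members were called higher than in hepatocytes and 1 lower, where 53.9% of all genes were called higher and 12.1% lower, so the share of members called higher was near that of all genes. Myc was 56.1-fold higher (log2 5.81, 4.67 above the all-gene median, adjusted p = 2.5e-27, limma), Fosl2 20.5-fold (log2 4.36, 3.22 above the median) and Egr1 4.53-fold (log2 2.18, 1.04 above the median), and these 3 and Fosl1 were called higher under every scaling. Fos was 3.16-fold lower (adjusted p = 1.3e-12). Junb, 2.05-fold higher, had a log2 difference of -0.08 with median-of-ratios scaling, and Atf3, 2.49-fold higher, was higher under the 4 scalings and called in 2 of them. At day 14, 4 members were called higher (Fosl1, Fosl2, Egr1 and Myc) and 3 lower (Fos 2.74-fold, Fosb 3.18-fold and Jun 2.59-fold), beside 50% and 12.9% of all genes, and these 7 calls held under the 4 scalings. From day 3 to day 14, Fosb and Jun fell 2.29-fold and 2.2-fold, 2 of 10 members beside 5.05% of all genes called lower, and none was called higher (5.12% of genes). Fosb was called lower under the 4 scalings and Jun under 3 of them. The share of all calls that were higher moved from 50.3% to 58.9% with quantile normalization and 64.4% with median-of-ratios scaling.

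Over the 4 passaged lines, 3 members were higher than in hepatocytes and 3 lower, beside 48.1% and 11.3% of all genes. Myc was 21.9-fold higher (SE of log2 0.094, adjusted p = 3.4e-27), Fosl2 10.2-fold higher and Fosl1 at least 28.1-fold higher in each line, up to at least 640-fold in clone-1 P20. Jun was 7.9-fold lower (adjusted p = 3.5e-25), Fos 7.29-fold and Fosb 5.56-fold, and these 6 calls held under the 4 scalings. Junb (log2 difference -0.01, adjusted p = 0.85), Jund (0.00, adjusted p = 0.97) and Egr1 (0.21, adjusted p = 0.16) missed the threshold, and the last was -0.74 with median-of-ratios scaling. Atf3 was lower but under 2-fold with FPKM as given, and was called lower in 2 of 4 scalings (log2 -1.62 to -0.67 over the 4). In IL6-iMHs Atf3 was called lower in 3 of 4 (-1.51 to -0.93), again not with FPKM as given. In the IL6-iMHs, the same 6 genes were called in the same directions against hepatocytes, beside 24.8% of all genes called higher and 7.79% lower, with Myc at 8.63-fold, Fosl2 at 3.82-fold, Fos at 5.07-fold lower, Fosb at 4.3-fold lower and Jun at 3.08-fold lower. Both comparisons share the hepatocyte samples. Within mouse-1, from P10 to P35 IL6-iHPCs, Fosl1 rose 2.65-fold (adjusted p = 2.1e-12), and 5 members fell: Egr1 and Fosl2 3.35-fold each, Atf3 3-fold, Jun 2.85-fold and Fos 2.66-fold, beside 24.8% of all genes called higher and 8.94% lower. That contrast is 1 line at 2 passages.

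The lists of pathway genes were read in cells in the same way. Of 21 other immediate early genes, 16 were higher and 1 lower in IL6-iHPCs-D3 than in hepatocytes (median log2 3.46, where that of all genes was 1.14), with Ctgf, a matricellular gene, 397-fold and Klf6, a zinc finger factor, 170-fold higher, and Gadd45g fell by 2.91. In the passaged IL6-iHPCs, 13 were higher and 2 lower (median 1.41 against 0.94), with Ier3 123-fold and Sgk1 64.5-fold higher. Of 14 AP-1 targets, 11 were higher in IL6-iHPCs-D3 (median 4.06) and 13 in the passaged lines (median 4.29), none lower, with Vim 143-fold and Hmox1 141-fold higher at day 3 and Spp1, osteopontin, 1470-fold higher in the passaged lines. Of 20 Myc targets, 12 were higher at day 3 (median 1.66) and 11 in the passaged lines (median 1.32), none lower, with Npm1, nucleophosmin, 15.3-fold higher at day 3. The counts of Myc targets were near the shares of all genes called higher, 53.9% at day 3 and 48.1% in the passaged lines. Those of the other immediate early genes and of the AP-1 targets were above these shares. All list counts in cells are for FPKM as given. Of 14 MAP kinase feedback genes, 11 were higher and 1 lower (Dusp2) at day 3 (median 2.19). The members' own medians were 1.17 at day 3 and -0.01 in the passaged lines. The Max network (9 of 14 higher), the kinases and ternary complex factors (13 of 16) and the AP-1 partners (8 of 13, 1 lower) also had calls mostly upwards at day 3, in a comparison where 53.9% of all genes were. Bile duct and progenitor markers rose from 3.84 to 3.94 FPKM summed in hepatocytes to 355 to 529 in IL6-iHPCs-D3 and 2699 to 10977 in the passaged IL6-iHPCs, and their part in the members' levels was not tested. Spp1 is in this list and among the AP-1 targets.

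The change from IL6-iHPCs to IL6-iMHs of the same 4 lines asked how the members differed after the maturation medium. Maturation, the removal of EGF, HGF and IL6, and the oncostatin M and higher dexamethasone of that medium cannot be told apart in it. Over the lines, Fosl1 fell 2.98-fold (adjusted p = 3.3e-21, limma), Fosl2 2.68-fold and Myc 2.53-fold, and Jun rose 2.56-fold (adjusted p = 1.9e-21), that is 3 of 10 members lower and 1 higher beside 21.4% and 6.68% of all genes. With median-of-ratios scaling Myc had a log2 difference of -0.98 and was under 2-fold, and the other 3 calls held under the 4 scalings. The median of all genes was 0.41 lower in IL6-iMHs, and 23.8% of all calls were higher, but 52% with quantile normalization and 47.6% with median-of-ratios scaling. Of the lists, 8 of 14 AP-1 targets fell and 1 rose (median -1.31), 9 of 20 Myc targets fell and none rose (median -0.84), 6 of 14 MAP kinase feedback genes fell (median -0.90), and of 21 other immediate early genes 5 fell and 2 rose (Ctgf and Btg2; median -0.40).

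The lines did not change alike. A limma F test of whether the change differed among the 4 lines was called for 9 of 10 members (adjusted p under 0.05 and a largest difference between lines of at least 1 on the log2 scale), beside 65.2% of all 12328 genes. Fos had log2 changes of -1.31 and 4.14 in mouse-1 at P10 and P35, -1.33 in clone-1 P20 and 0.60 in mouse-2 P10 (F test adjusted p = 4.6e-21). Egr1 had -3.02, 2.40, -1.64 and 1.39 in the same order, and Atf3 -1.94, 0.23, -0.68 and 1.35. The 2 lines with lower Fos and Egr1 after maturation were mouse-1 P10 and clone-1 P20, and the 2 with higher values were mouse-2 P10 and mouse-1 P35. Myc was lower after maturation in each line (-1.86, -1.53, -0.83 and -1.13), as was Fosl2 (-2.83, -1.19, -0.67 and -1.01), and Jun was higher in each (0.81, 3.00, 0.79 and 0.83), whereas Fosl1 was lower in 3 and 0.40 higher in mouse-2 P10. Counted by line, again in that order, 6, 7, 4 and 4 of the 10 members were called in either direction, beside 25%, 45.3%, 23.6% and 39.9% of all genes. Against hepatocytes the IL6-iHPCs of these lines had 6, 8, 7 and 6 members called, beside 52.6%, 66%, 61.9% and 55.9% of genes, and the IL6-iMHs 8, 5, 6 and 6, beside 32.6%, 35.2%, 45.3% and 25.2%. Each line is represented by technical repeats, so line, animal and passage cannot be told apart over the 4 lines. Mouse-1 is counted among them at both P10 and P35, as 2 of the 4, with equal weights in the averages over lines. Mouse-1 and mouse-2 at P10 share a passage.

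**Figure D5:**
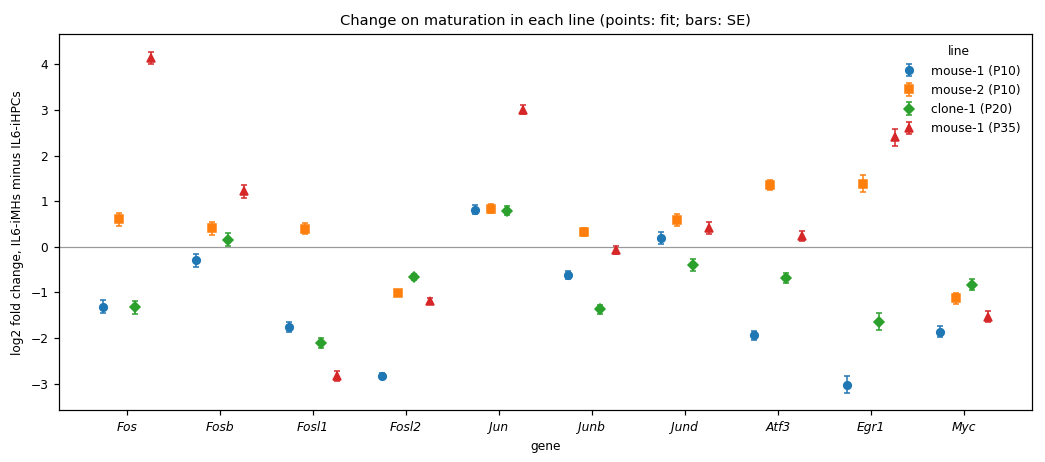
Log2 fold change of each member from IL6-iHPCs to IL6-iMHs in each of the 4 lines, as fitted by limma, with bars of 1 standard error. The lines spread from -3.02 to 2.40 for Egr1 and from -1.31 to 4.14 for Fos on either side of 0, while all 4 lie below 0 for Myc and Fosl2 and above 0 for Jun.

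In the short table of day 7 cultures, Jund and Atf3 were the members listed. Jund was at 104, 116 and 121 FPKM in primary hepatocytes, at 165, 179 and 151 in IL6-iHPCs-D7 and at 141, 181 and 188 in HCM-Hepa-D7. Atf3 was at 14.5, 15.5 and 15.1 FPKM, at 11, 11.7 and 11.1 and at 12.9, 14.2 and 14.3 in the same groups. The day 7 cultures overlapped for Jund and did not for Atf3. In limma fits over the 276 tested genes, neither was called with IL6 against without it (log2 -0.04 and -0.27, adjusted p = 0.8 and 0.0016, beside 5.43% of genes called), with IL6 against primary hepatocytes (0.53 and -0.39, 53.3% of genes called) or without IL6 against primary hepatocytes (0.57 and -0.12, 54%). With quantile normalization and with median-of-ratios scaling Atf3 was called lower with IL6 than in primary hepatocytes (log2 -1.30 and -1.01), and Jund turned to -0.19 and -0.13 there and to -0.17 and -0.11 without IL6. The counts at an unadjusted p under 0.05 were 1, 2 and 1 of the 2 genes, beside 60.1%, 92.8% and 92.8% of genes, and no other tool was run on this table.

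The genes most like each member over samples were found by Pearson's r of log2(FPKM + 1) over all tested genes other than the 10 members, as a description. The samples share groups and libraries, so no p is given. Over the 18 livers, and among non-members, Fos was most like Ier2 (r = 0.931) and Cyr61 (0.928), Jun like Csrnp1 (0.956), Jund like Ier2 (0.948) and Atf3 like Nr4a1 (0.955). These are all themselves immediate early genes, and Egr1 and Fosl2 were both most like Btg2 (0.887 and 0.896). Of the remaining members tested in livers, Fosb was most like Ccrl2 (0.931), Junb like Irs2 (0.9) and Myc like Dusp4 (0.923). Over the 33 cell samples, again among non-members, Fos was most like early genes, Zfp36 (0.9) and Ier2 (0.887), and Atf3 and Egr1 were both most like Trib1 (0.893 and 0.811), a pseudokinase gene. Fosb, in contrast, was most like Cyp2a5 (0.924), a cytochrome P450 gene of hepatocytes, and Myc like Pdlim7 (0.979). Members could be closer to each other than to these genes: Fos and Jun had r = 0.983 over livers and 0.46 over cells, Fos and Fosb 0.916 and 0.611, and Fosl1 and Jun ran against each other over cells (-0.714).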

How the data were processed

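The members and the lists of pathway and marker genes were chosen with earlier results of these data known. Per the labels, mRNA was selected with polyT from Trizol RNA, and the submitters' processing notes name TopHat 1.4.1, Cufflinks 1.3.0 and the build mm10. The authors deposited expression values for 33 cell and 18 liver samples and for 9 samples of a day 7 table that was used as far as it goes (480 complete genes and 1 row broken off). Neither the tables nor the paper's methods name the unit, which was taken as FPKM. Strand was not stated, so reads of overlapping genes cannot be told apart. FPKM steps gave whole reads for 100% of genes above 0 in the cell and liver tables, and recovery of reads was not tried on the day 7 table. The p-values and read limits cover counting and sample spread only.

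From these values log2(FPKM + 1) was computed and fitted with limma 3.58.1 in R 4.3.3 (empirical Bayes with a mean-variance trend), all groups of a table in 1 fit, keeping a gene where 3 or more samples reached 1 FPKM (12328 cell, 11114 liver and 276 day 7 genes). The Benjamini-Hochberg adjustment covered every tested gene, and a gene was called at an adjusted p under 0.05 and at least 2-fold. The maturation change was compared among lines by a limma F test. The script was tested on simulated data. Beside the members, the genes named are the 2 largest called rises and the 2 largest called falls of each list in a comparison, and the 2 genes most correlated with each member, and some that this rule names are not reported here. Alternatives were a pseudocount of 0.1, no filter or a filter of 5 FPKM, quantile and median-of-ratios scaling, other fold thresholds, a fit of the compared groups alone, a replicate block, leaving out each sample, and, chosen after seeing the data, limma voom on recovered reads and fits without the PHX-D7 livers or without PHX-D3 replicate 2 and PHX-D14 replicate 3. Python 3.11.15 with numpy 2.4.6, pandas 2.3.3 and matplotlib 3.10.9 was used.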

Additional observations from a re-analysis of the deposited data

Results flagged for a closer look

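For 9 of the 10 members the change from IL6-iHPCs to IL6-iMHs differed between the 4 lines by the limma F test, beside 65.2% of all genes tested. The largest difference between 2 lines, on the log2 scale, was 5.474 for Fos (adjusted p = 4.6e-21), 5.422 for Egr1 (adjusted p = 8.1e-18), 3.29 for Atf3 (adjusted p = 3.5e-17) and 3.233 for Fosl1 (adjusted p = 1.8e-16). It was 2.214 for Jun, 2.158 for Fosl2, 1.701 for Junb, 1.51 for Fosb and 1.026 for Myc. For Jun, Fosl2 and Myc the lines differed in size and shared a direction, and for Fos, Egr1, Atf3, Fosl1, Fosb and Junb they also differed in sign. Jund, at 0.978, was the member not called. The samples of a line are technical repeats, and line, animal and passage cannot be told apart over the 4 lines.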

How the results depend on the processing

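Against hepatocytes, the calls of Fos, Fosl1, Fosl2, Egr1 and Myc at day 3, of 7 members at day 14, and of 6 in IL6-iHPCs and in IL6-iMHs held under the 4 scalings. Beside the samples left out, 1063 of the members' values kept their direction and side of the threshold, 18 lost a call, 37 gained one and 26 changed sign. Further calls changed with the scaling and are not in the counts listed below. On maturation Myc was called in 3 of 4 scalings and Fosb in 1. Against hepatocytes Atf3 was called in 2 of 4 in IL6-iHPCs and in 3 of 4 in IL6-iMHs. Jund at 6 h was called in 2 of 4. Among the counts of members called, those that moved included the following. With median-of-ratios scaling there was 1 from day 3 to day 14 in culture, 2 from PHX-6h to PHX-24h and 1 for IL6 at day 7 against primary hepatocytes, also 1 with quantile normalization. The filter of 5 FPKM gave 1 from day 3 to day 14. With no fold threshold there were 8 from day 3 to day 14, 10 from IL6-iHPCs to IL6-iMHs, 1 from PHX-6h to PHX-24h and, at day 7, 2, 1 and 1 for IL6 against primary, IL6 against no IL6 and no IL6 against primary. A 1.5-fold threshold gave 5 from day 3 to day 14 and 1 from PHX-6h to PHX-24h. A 4-fold threshold gave 4 (day 3), 3 (day 14) and 3 (IL6-iMHs) against hepatocytes, 0 from day 3 to day 14, 0 on maturation, and 3, 0 and 1 for PHX-6h, PHX-24h and PHX-D3. With the compared groups alone in the fit there were 2 for PHX-24h, 1 for PHX-D3 and 4 from PHX-6h to PHX-24h, and without the livers that stood apart 2, 1 and 4, and 1 from PHX-24h to PHX-D3. The cause was not tested.

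Leaving out 1 sample, the counts ran from 6 to 7 and 7 to 7 against hepatocytes at days 3 and 14, 6 to 6 for IL6-iHPCs and IL6-iMHs, 2 to 3 from day 3 to day 14, 4 to 4 on maturation, 4 to 7 for PHX-6h, 1 to 2 for PHX-24h, 1 to 4 for PHX-D3, 9 to 9 for PHX-D7, 8 to 9 for PHX-D14, and 0 to 1 between successive times in livers. Over the comparisons by line they summed to 78 to 80, and on maturation between lines they were 8 to 10.

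With quantile normalization the values that changed sign were Jun at day 3 (0.262) and Atf3 at day 14 (-0.533) against hepatocytes, Junb (0.428) and Jund (0.159) in IL6-iHPCs, Atf3 on maturation (0.233), Fosb from PHX-6h to PHX-24h (-0.152), and Jund in both day 7 cultures against primary hepatocytes (-0.193 with IL6, -0.174 without). With median-of-ratios scaling they were Junb (-0.083 and -0.622) and Jund (-0.368 and -0.502) at days 3 and 14, Atf3 at day 14 (-0.437), Egr1 in IL6-iHPCs (-0.744), Jund in IL6-iMHs (-0.408), Atf3 (0.032) and Egr1 (0.135) on maturation, Fosb from PHX-6h to PHX-24h (-0.019) and Jund at day 7 (-0.126 and -0.109). Fosb from PHX-6h to PHX-24h was also -0.476 with a pseudocount of 0.1 and -0.935 with voom. Without the livers that stood apart, PHX-D3 had Junb at -0.255 and Jund at -0.044 against normal livers, and Jund at -0.112 and Atf3 at -0.395 against PHX-24h. Over the samples left out in turn, values that crossed 0 were, in IL6-iHPCs against hepatocytes, Junb (-0.066 to 0.085), Jund (-0.174 to 0.161) and Egr1 (-0.111 to 0.473), Egr1 in IL6-iMHs (-0.331 to 0.253), Jund in PHX-24h (-0.011 to 0.17), Junb (-0.255 to 0.781) and Jund (-0.044 to 0.581) in PHX-D3, Fosb from PHX-6h to PHX-24h (-0.584 to 0.414), Fosl2 (-0.48 to 0.298), Jund (-0.112 to 0.513) and Atf3 (-0.395 to 1.3) from PHX-24h to PHX-D3, and Jund for IL6 against no IL6 at day 7 (-0.164 to 0.043).

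Replicate numbers did not pair the samples: deviations of same-numbered samples correlated from -0.536 to 0.573 in cells, -0.299 to 0.386 in livers and -0.415 to 0.168 at day 7, and 12 of 33, 5 of 18 and 1 of 9 samples were closest to one of their own number. With the replicate number as a block the counts were the same, for example 79 over the comparisons by line, with Atf3 in PHX-D3 at an adjusted p of 0.051 and Myc at 0.048 (limma).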
